A study of Apis mellifera with 24 samples.

Results

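Brains of worker honey bees from the pair of reciprocal crosses that make up block B were compared by their total gene expression. The comparison sets lineage L894, from an Africanized mother and a European father (Afr x Eur, mother first), against lineage L882, from the opposite cross (Eur x Afr). All 6 bees of L894 and all 6 of L882 were used, which is 12 of the 24 bees sequenced. The other 12 bees form block A, in which L888 is Afr x Eur and L875 is Eur x Afr. Each lineage has 3 bees labelled Reproductive and 3 labelled Sterile. The animals of all groups were workers reared without a queen for about 18 days, and polyA RNA was taken from the brain of each bee. Bees are numbered 1 to 3 within a lineage and status in the order of their records, and a number links no bees across groups.

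Reciprocal crosses join the same parental types, here Africanized and European, in opposite roles. A gene whose level depends on which parent supplied an allele, or on the mother's cytoplasm, can therefore differ between them. Honey bee workers cannot mate, but without a queen some activate their ovaries and lay unfertilized eggs that become drones. In block B each cross direction is a single lineage, so the direction of the cross and the identity of the family cannot be told apart from these 12 bees alone. The labels do not say whether the bees of a lineage shared a colony, so the p-values measure the spread among these bees, which may be smaller than that among families. In whole brains, fewer cells of a type and less RNA per cell cannot be told apart.

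The deposited gene identifiers are paired with no names, and none of the 15314 was found in the reference table, so genes are given by identifier and no function is assigned to them. For the same reason, markers of brain, gland, fat body or blood cells could not be looked up.

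Libraries of the 12 bees held between 5.19 and 16.7 M expected counts (M, 1e+06 counts), which are estimated numbers of reads per gene. The mean was 13.6 ± 2.05 M in L894 and 10.3 ± 3.15 M in L882 (SD, n = 6 each). The difference of 3.38 M counts gave p = 0.04 in a two-sided exact permutation of lineage within status, and 0.12 after adjustment over the 3 measures taken per bee. The smallest p that these 400 labellings allow is 0.005. A few genes took a large and variable part of each library. The 10 most abundant genes of a bee, whose sum is its top-10 share, held 49.98% ± 14.9 of its counts in L894, from 31.8% to 71.2%, and 36.5% ± 18.8 in L882, from 9.38% to 61.4% (SD, n = 6 each). The difference of 13.5 percentage points gave an exact permutation p of 0.085, and 0.125 after adjustment. The lowest share and the smallest library belonged to the same bee, L882 Reproductive 1. Genes with at least 1 count numbered 10754 ± 128 in L894 and 10887 ± 130 in L882 (SD, n = 6), a difference of -132.5 with an exact permutation p of 0.125 and the same value after adjustment. With every library thinned to the size of the smallest, the difference was -240 with an exact permutation p of 0.04, not adjusted.

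**Figure D1:**
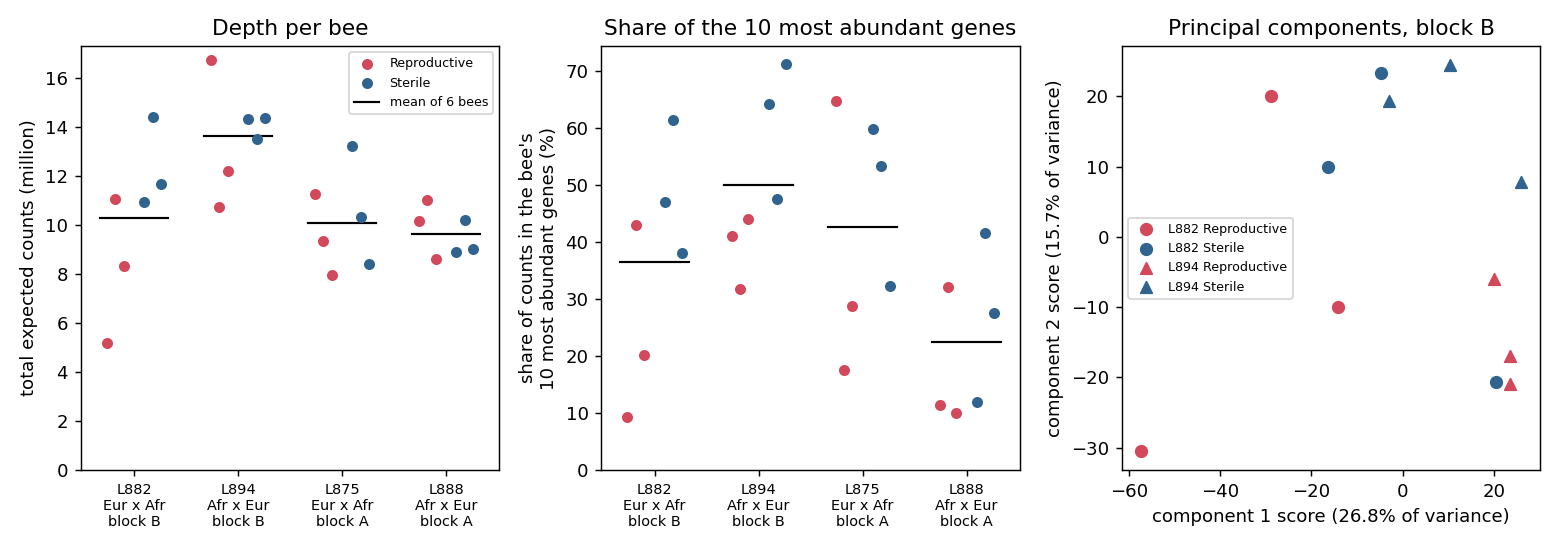
Total expected counts per bee (left) and the percentage of counts in the bee's 10 most abundant genes (middle) for the 4 lineages, with the mean of 6 bees as a bar, and the scores of the 12 bees of block B on the first 2 principal components of log2 CPM (right). L894 has the larger mean depth and L888 the lowest mean share of abundant genes, 22.4%, and the lineages of block B overlap on the first component, where L882 Reproductive 1 lies far to the left at -57.4.

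The first principal component of block B held 26.8% of the variance and the second 15.7%. On the first, L882 ran from -57.4 in Reproductive 1 to 20.5 in Sterile 3, and L894 from -2.89 to 26.1. The lineages therefore overlapped, with L882 Sterile 3 among the bees of L894. The median within-group SD of log2 CPM (counts per 1e+06 counts after TMM scaling) was 0.308 in reproductive and 0.265 in sterile bees of L882, and 0.229 and 0.281 in those of L894.

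Few genes separated the reciprocal lineages with all 12 bees in the fit. Of 9364 genes tested with status as a covariate, 4 passed an adjusted p of 0.05 in edgeR's quasi-likelihood test (0.0427% of those tested). GB50262 and GB46678 were higher in L894 (0.0214%), and GB51446 and GB50283 were lower (0.0214%). In each of these genes the 6 bees of L894 and the 6 of L882 did not overlap. In the values that follow, the bees of a lineage are listed as Reproductive 1 to 3 and then Sterile 1 to 3.

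The largest difference was in GB51446. Its levels in L882 were 48.5, 302.5, 267.9, 313.5, 1287 and 174.6 CPM. In L894 they were 1.95, 0.684, 2.40, 2.42, 2.01 and 4.52 CPM. Every L894 bee held a small number of counts, 8 to 31, whereas the L882 bees held 480 to 11921 and spread widely, with Sterile 2 far above the others. The log2 difference, L894 minus L882, was -7.31 (SE 0.66, edgeR adjusted p = 2.19e-04). The means were 2.33 ± 1.25 CPM in L894 and 399 ± 446 CPM in L882 (SD, n = 6). In block A the gene varied from bee to bee within both directions, from 38.3 to 739 CPM in L888 and from 1.93 to 1112 CPM in L875, so the low level of L894 was shared by a single bee of the other cross, L875 Reproductive 2.

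GB50283 was the other gene lower in L894. The L882 bees had 12.1, 17.4, 20.4, 15.5, 12.3 and 13.6 CPM. The L894 bees had 2.01, 1.97, 3.26, 4.71, 3.18 and 6.71 CPM. The highest L894 bee, Sterile 3, stayed below the lowest L882 bee, Reproductive 1. The log2 difference was -2.15 (SE 0.28, edgeR adjusted p = 0.00768). In block A the gene averaged 7.63 ± 3.27 CPM in L888 and 12.03 ± 3.43 CPM in L875 (SD, n = 6), a log2 difference of -0.66 that did not pass (edgeR adjusted p = 0.533).

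GB50262 was higher in L894. The L882 bees lay close together at 5.36, 5.01, 3.73, 4.47, 3.56 and 3.88 CPM. The L894 bees had 13.97, 10.2, 15.1, 12.4, 12.8 and 21.1 CPM. The lowest L894 bee, Reproductive 2, was still above every L882 bee. The log2 difference was 1.70 (SE 0.20, edgeR adjusted p = 0.00387). With each bee's top-10 share as a covariate the difference was 1.58 and no longer passed (edgeR adjusted p = 0.0759), and with all 24 bees setting the spread it was 1.72 and did not pass (0.1995). In block A, L875 had 5.28 ± 2.37 CPM and L888 had 10.995 ± 10.7 CPM (SD, n = 6), the latter ranging from 2.07 to 25.9 CPM, and the log2 difference of 1.08 did not pass (edgeR adjusted p = 0.552).

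GB46678 was the second gene higher in L894, at low levels in both lineages. The L882 bees had 1.41, 0.615, 0.636, 0.486, 0.756 and 0.992 CPM, from 5 to 14 counts each. The L894 bees had 4.09, 3.08, 3.52, 5.92, 2.84 and 6.41 CPM, from 34 to 65 counts each. The gap lay between L882 Reproductive 1 and L894 Sterile 2. The log2 difference was 2.35 (SE 0.34, edgeR adjusted p = 0.0176). Over the 12 fits that each left out 1 bee it ranged from 2.21 to 2.63, with an adjusted p from 0.00538 to 0.0762. The call was lost in 6 of them, without L882 Reproductive 2 or 3, L882 Sterile 1 or 2, L894 Reproductive 1 or L894 Sterile 1. With the top-10 share as a covariate the difference was 2.39 and did not pass (edgeR adjusted p = 0.222). L882 had the lowest mean of the 4 lineages, 0.817 ± 0.339 CPM, while L875 averaged 4.29 ± 1.82 CPM and L888 3.09 ± 2.95 CPM (SD, n = 6), near the 4.31 ± 1.51 CPM of L894.

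**Figure D2:**
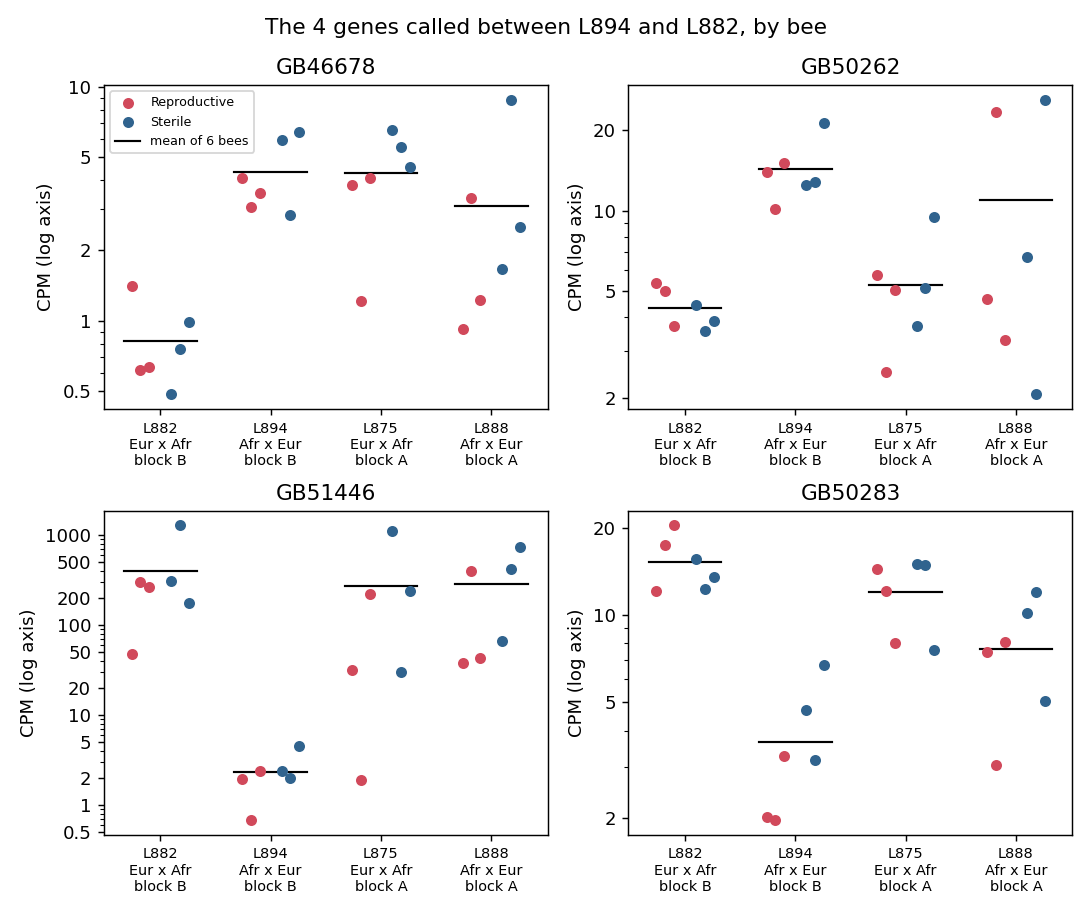
CPM on a log axis in each bee of the 4 lineages for the 4 genes that passed between L894 and L882, with the mean of 6 bees as a bar. The lineages of block B do not overlap in any panel, while those of block A do in all panels, and GB51446 is near 2 CPM in L894 and in 1 bee of L875.

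Across all genes tested the differences were small. The median log2 difference was -0.02, the median size 0.21, and the central 90% of genes ran from -0.71 to 0.51. At an unadjusted p under 0.05, 1556 genes differed (16.6%), 624 higher in L894 (6.66%) and 932 lower (9.95%). A difference of more than 2-fold, without a test, was found in 248 genes, 74 higher and 174 lower. The 6 bees of one lineage lay wholly above or below the 6 of the other in 92 genes (0.982%), 47 higher in L894 (0.502%) and 45 lower (0.481%). Of these, 90 had an unadjusted p under 0.05 and 19 exceeded 2-fold, with a median size of 0.59 log2 units. DESeq2 called 184 genes (1.96%), 75 higher and 109 lower, among them the 4 that edgeR called.

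The number of genes called changed with single bees left out. Leaving out L882 Sterile 3 raised it to 64 genes, 21 higher and 43 lower, and leaving out L894 Reproductive 2 or L894 Sterile 2 gave 7. The other 9 fits gave 3 to 6. GB51446, GB50283 and GB50262 passed in all 12. With the top-10 share as a covariate 2 genes passed, GB51446 at -8.18 log2 units (edgeR adjusted p = 5.55e-07) and GB50283 at -2.38 (0.0313). The log2 differences of the 2 that did not, GB46678 and GB50262, were 2.39 and 1.58 there, against 2.35 and 1.70 without it. Genes at an unadjusted p under 0.05 numbered 1135 with the covariate and 1556 without.

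None of the 10 most abundant genes was called between the lineages in the fit of all 12 bees. All 10 had a higher mean CPM in L894, and 9 also had a higher fitted level there, with log2 differences from -2.39 to 1.27 and a median of 0.75, and none had an unadjusted p under 0.05. The exception, GB45796, had a fitted log2 difference of -2.39 but a mean of 23203 CPM in L894 against 13022 CPM in L882. It was the gene of these 10 that passed in reproductive bees, where its log2 difference was -6.20 (edgeR adjusted p = 0.0394). That call was lost without L894 Reproductive 1, 2 or 3, and also without L882 Reproductive 2 or L882 Sterile 2. The most abundant, GB55205, singled out after its values were seen, ranged from 128270 to 696663 CPM in L894 and from 1475 to 429225 CPM in L882. Its groups overlapped, with a log2 difference of 0.92 (SE 0.81, edgeR adjusted p = 0.569). In block A all 10 of these genes were fitted lower in the Afr x Eur lineage, with log2 differences from -2.52 to -1.57. There 3 of the 10 had an unadjusted p under 0.05 and none was called. Their part in the other differences was not tested.

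More genes passed between the lineages among reproductive than among sterile bees, but no gene passed edgeR's test of the difference between the statuses. In a model with 1 mean per lineage and status, 333 genes passed between the reproductive bees of L894 and L882 (3.56%), 125 higher (1.33%) and 208 lower (2.22%). An unadjusted p under 0.05 was found in 2591 genes (27.7%), and DESeq2 called 1166 (12.5%). Between the sterile bees 1 gene passed, GB51446 (0.0107%), with 373 genes at an unadjusted p under 0.05 (3.98%) and 14 called by DESeq2 (0.15%). The median size of the log2 difference over all genes was 0.37 in reproductive and 0.18 in sterile bees. The 3 bees of one lineage lay apart from the 3 of the other in 3025 genes (32.3%) among reproductive bees and in 877 (9.37%) among sterile bees. Groups of 3 can also lie apart by chance, and these shares were not tested against that. In the test of the difference between the statuses edgeR called 0 genes (0%), where 1231 had an unadjusted p under 0.05 (13.1%) and the lowest adjusted p was 0.358. DESeq2 called 15 genes in that test (0.16%) and limma voom called 0.

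**Figure D3:**
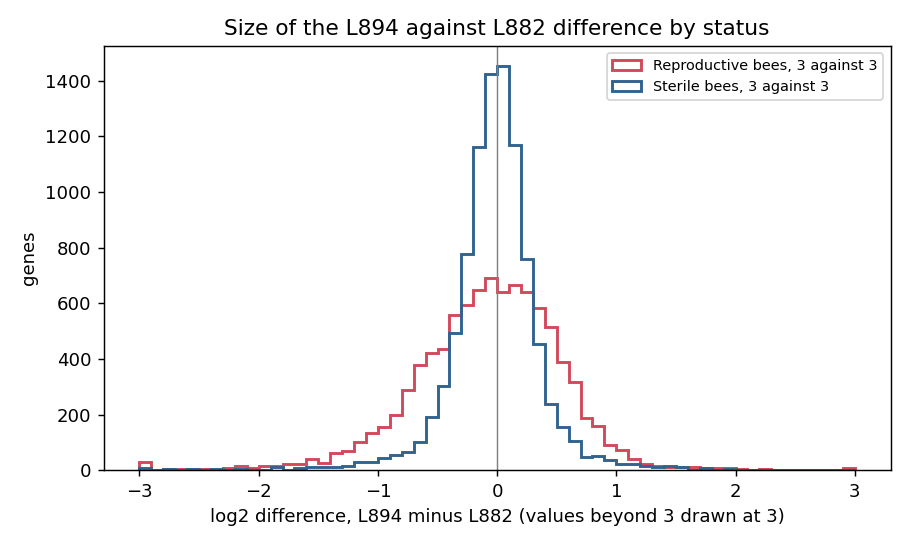
Number of genes by log2 difference (L894 minus L882, bins of 0.1, values beyond 3 drawn at 3) in the 3 against 3 reproductive bees and the 3 against 3 sterile bees. The distribution is wider in reproductive bees, with a median size of 0.37 against 0.18.

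The genes called in reproductive bees had smaller fitted differences in sterile bees. Over the 333, the median size was 1.04 log2 units in reproductive bees, and the median sterile difference in the same direction was 0.15. The sign was shared by 247 of them (74.2%), against 55.6% of all genes tested, and 23 had an unadjusted p under 0.05 in sterile bees with that sign. The 2 contrasts come from different bees but from 1 fit, and the 333 were chosen on the reproductive contrast.

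Among the genes called higher in L894 in reproductive bees, GB51356 had the largest difference of those without overlap and with a mean of at least 1 CPM. Its levels were 6.16, 0.879 and 2.36 CPM in L882 and 11.7, 21.5 and 42.1 CPM in L894, without overlap. In sterile bees they were 18.5, 57.4 and 58.7 CPM in L882 and 111, 49.2 and 24.6 CPM in L894, with wide overlap. The log2 difference was 3.002 in reproductive bees (SE 0.74, edgeR adjusted p = 0.0473) and 0.46 in sterile bees, and the difference between them was 2.54 (adjusted p = 0.358). limma voom did not call the gene in reproductive bees (adjusted p = 0.0918), and edgeR called it in 3 of the 12 fits with 1 bee left out.

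GB45017 had the smallest p among the genes called higher in L894 in reproductive bees. In reproductive bees it stood at 66.1, 70.7 and 59.6 CPM in L882 and at 142, 159 and 173 CPM in L894. In sterile bees it stood at 74.4, 66.7 and 97.6 CPM in L882 and at 109, 122 and 83.7 CPM in L894. The groups were well apart in reproductive bees and overlapped in sterile bees, where L894 Sterile 3 fell below L882 Sterile 3. The log2 difference was 1.26 (SE 0.18, edgeR adjusted p = 0.0286) in reproductive and 0.40 in sterile bees, and the call held in 7 of the 12 fits with 1 bee left out.

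The 4 genes called over all 12 bees also passed in the reproductive bees, which are part of those 12. GB51446 differed by -6.93 log2 units in reproductive bees (edgeR adjusted p = 0.0165) and by -7.67 in sterile bees (0.0216). GB50283 differed by -2.79 (adjusted p = 0.00983) and -1.53 (0.290), GB46678 by 1.995 (0.0444) and 2.72 (0.131), and GB50262 by 1.47 (0.0372) and 1.95 (0.0507). Each had the same direction in both statuses, which was fixed in advance because the lineages did not overlap in these genes. Without L894 Reproductive 1 or 2, none of the 4 passed in reproductive bees, and without L894 Reproductive 3 only GB50283 did. The adjusted p of GB51446 rose to as much as 0.121 in these fits. GB46678 and GB50262 also lost their calls without L882 Reproductive 1 or 2 or L882 Sterile 2. In reproductive bees fitted alone, GB46678 did not pass (edgeR adjusted p = 0.0672). Without L894 Sterile 1, 2 or 3, GB51446 lost its call in sterile bees (adjusted p up to 0.182).

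The number of genes at an adjusted p under 0.05 in reproductive bees rested on single bees. It fell to 0 without L894 Reproductive 1 or L894 Reproductive 2, to 1 without L894 Reproductive 3, to 5 without L882 Reproductive 1 or L882 Reproductive 2 and to 4 without L882 Sterile 2, which lies outside the contrast. It rose to 941 without L882 Reproductive 3 and to 611 without L882 Sterile 3, and it was 203 without L894 Sterile 1 and 182 without L894 Sterile 3. Genes at an unadjusted p under 0.05 ran from 1844 without L882 Reproductive 1 to 3041 without L882 Reproductive 3. They numbered 2137, 1920 and 2142 without L894 Reproductive 1, 2 and 3, against 2591 with all bees. At an adjusted p under 0.1, 1437 genes passed with all bees. Fitted alone, the 6 reproductive bees gave 187 genes and the 6 sterile bees gave 2, GB51446 and GB43991. With the top-10 share as a covariate, 8 genes passed in reproductive bees, while 2396 had an unadjusted p under 0.05, against 2591 without it. That share was 9.38% in L882 Reproductive 1, 42.9% in L882 Reproductive 2 and 20.1% in L882 Reproductive 3. In the reproductive bees of L894 it ran from 31.8% to 44.0%, so the lineages overlapped in it. Its part in the count was not tested.

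**Figure D4:**
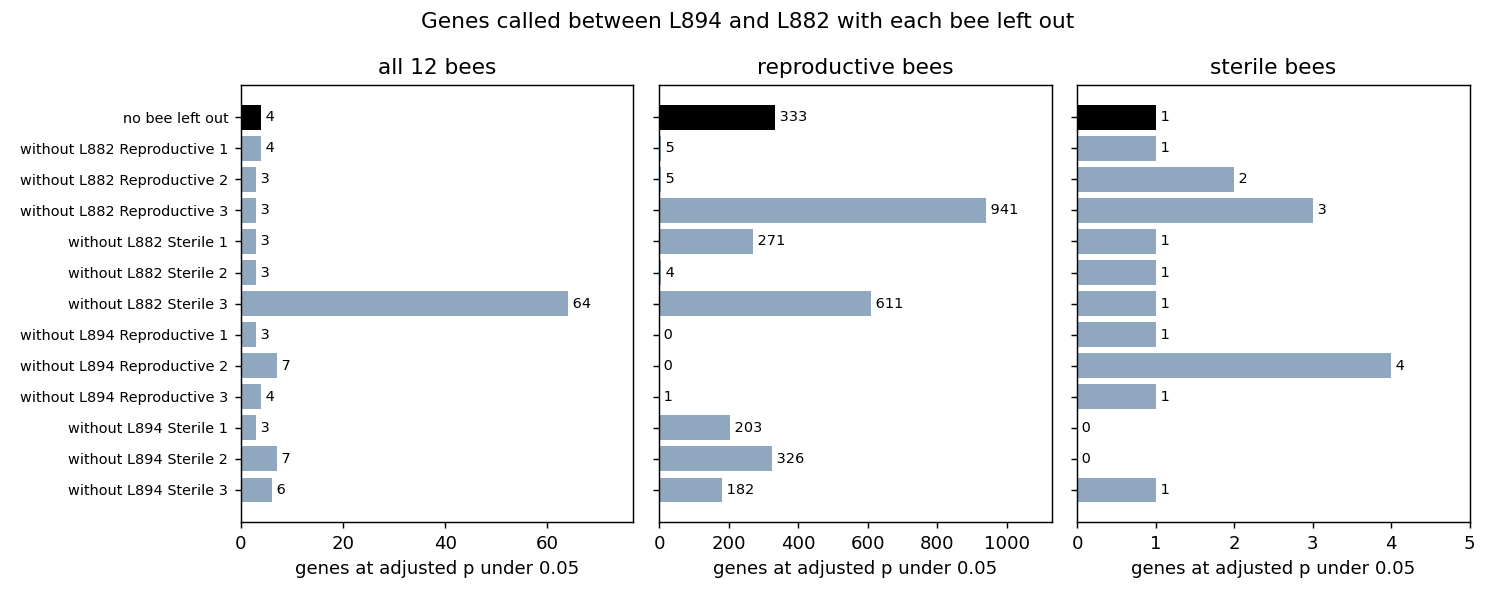
Number of genes at an adjusted p under 0.05 between L894 and L882 in edgeR with each bee of block B left out in turn, for all 12 bees, for reproductive bees and for sterile bees, with the fit on all bees in black. The horizontal scales differ, and the counts run from 3 to 64, from 0 to 941 and from 0 to 4.

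Block A offered a second pair of families with the same cross directions and no shared bees. There, 7 of 9331 genes passed between L888 and L875 (0.075%), 6 higher in the Afr x Eur lineage (0.0643%) and 1 lower (0.0107%). An unadjusted p under 0.05 was found in 881 genes (9.44%), and DESeq2 called 41 (0.439%). Of 9175 genes tested in both blocks, edgeR called 0 in both, with the same or with opposite signs. DESeq2 called 3 with the same sign, GB51422 and GB54410 higher and GB48890 lower in Afr x Eur. At an unadjusted p under 0.05 in both blocks there were 184 genes, 28 with the same sign and 156 with opposite signs. The 28 make up 1.82% of the 1538 such genes in block B and 3.26% of the 858 in block A.

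GB51422, named here because of that DESeq2 count, had the smallest edgeR p of the 28 genes in each block. In block B the L882 bees had 17.2, 18.6, 15.5, 24.1, 19.8 and 20.8 CPM. The L894 bees had 30.1, 36.4, 32.4, 40.2, 22.6 and 40.1 CPM. All L894 bees except Sterile 2 lay above all L882 bees. The log2 difference was 0.80 (SE 0.15) with an edgeR adjusted p of 0.131 and a DESeq2 adjusted p of 0.00129. Without L882 Sterile 3, or without L894 Sterile 2 itself, edgeR called GB51422 in both blocks. In the other 22 of 24 fits with 1 bee left out, no gene was called in both with the same sign. In block A it averaged 38.8 ± 3.46 CPM in L888 and 20.4 ± 4.33 CPM in L875 (SD, n = 6), without overlap, and the log2 difference of 0.94 (SE 0.15) passed (edgeR adjusted p = 0.0393).

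GB54410, from the same count, averaged 43.5 ± 10.98 CPM in L894 and 20.98 ± 8.06 CPM in L882, and 25.03 ± 20.9 CPM in L888 and 7.91 ± 1.53 CPM in L875 (SD, n = 6). Its log2 differences were 1.03 in block B (edgeR adjusted p = 0.141) and 1.64 in block A (0.356). GB48890 averaged 1.02 ± 0.443 CPM in L894 and 2.98 ± 1.34 CPM in L882, and 1.73 ± 0.672 CPM in L888 and 4.25 ± 1.14 CPM in L875. Its log2 differences were -1.56 in block B (edgeR adjusted p = 0.156) and -1.30 in block A (0.259). In block B the lineages overlapped in both genes. In block A they overlapped in GB54410 and did not in GB48890.

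Opposite signs outnumbered shared ones over the whole set of genes. Of the 9175 genes, 34.9% had the same sign in both blocks, and Pearson's r between the log2 differences was -0.28 across genes, which share the same 24 libraries and are not independent replicates. Of the 92 genes that separated the lineages of block B without overlap, 90 were tested in both blocks, and 21 of these (23.3%) had the same sign in block A. A single gene, GB55796, separated both pairs, in opposite directions. The mean top-10 share was higher in L894 than in L882 in block B, and lower in L888, at 22.4% ± 13.2, than in L875, at 42.7% ± 19.1, in block A (SD, n = 6). With that share as a covariate in both fits, 33 genes had an unadjusted p under 0.05 in both blocks, 16 with the same and 17 with opposite signs, the same sign was found in 45.8% of all genes, and r was -0.03. The part of the share in these signs was not tested.

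**Figure D5:**
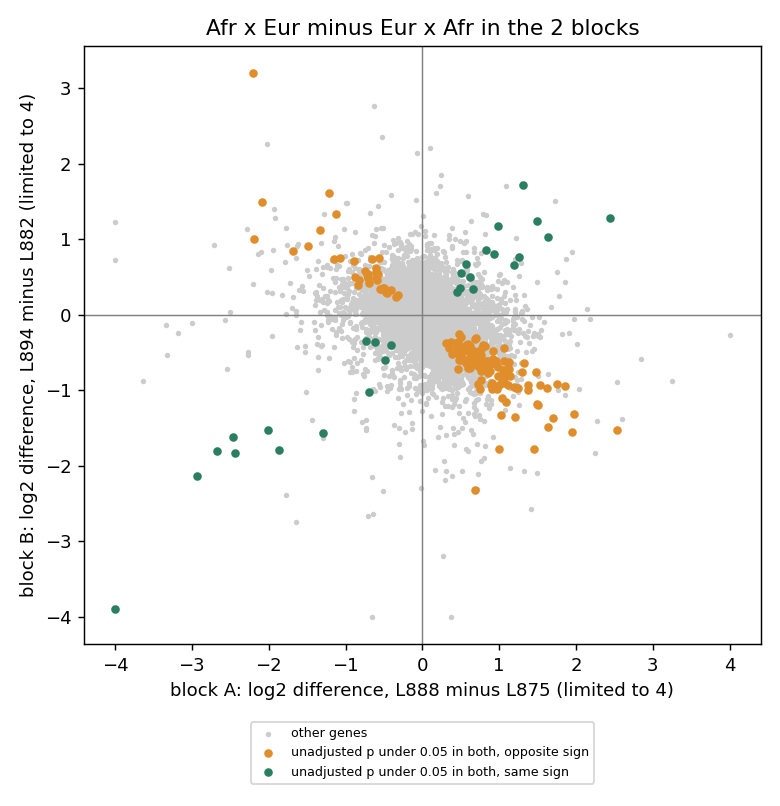
Log2 difference between Afr x Eur and Eur x Afr in block B (vertical) against block A (horizontal), each limited to 4, for every gene tested in both blocks. Of the 184 genes at an unadjusted p under 0.05 in both, 156 (orange) lie in the quadrants of opposite sign and 28 (green) in those of the same sign.

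The difference between the blocks was tested directly in all 24 bees. In 17 of 9748 genes (0.174%) the Afr x Eur minus Eur x Afr difference was not the same in block B as in block A, 9 with a higher (0.0923%) and 8 with a lower value in block B (0.0821%). An unadjusted p under 0.05 was found in 2026 genes (20.8%), and DESeq2 called 283 (2.9%). GB51446 was among them, with -7.67 log2 units between the blocks (SE 1.42, edgeR adjusted p = 0.0223), though limma voom did not call it (0.114) and edgeR called it in 15 of 24 fits with 1 bee left out. GB49689 gave 4.99 (SE 1.003, adjusted p = 0.0470), and its call held in 9 of 24 fits with 1 bee left out. GB49689 did not pass the count filter in block B alone and was not tested there. The L882 bees held 0 to 11 counts of it and the L894 bees 1 to 119. Its level was 3.14 ± 2.74 CPM in L894 and 0.263 ± 0.377 CPM in L882, and 1.01 ± 0.780 CPM in L888 and 3.57 ± 0.935 CPM in L875 (SD, n = 6).

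GB55796 differed between the blocks by 1.91 (SE 0.32, edgeR adjusted p = 0.0152). It averaged 3.88 ± 0.426 CPM in L894 and 2.33 ± 0.390 CPM in L882, a log2 difference of 0.73 that did not pass in block B alone (adjusted p = 0.176), and 2.43 ± 0.648 CPM in L888 and 5.41 ± 1.41 CPM in L875 (SD, n = 6). GB50921 gave -4.80 (SE 0.47, adjusted p = 1.49e-05), which came from block A, where L888 had 24.8 ± 3.23 CPM while the other 3 lineages averaged 1.09 to 1.38 CPM.

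Lineages of the same cross direction differed too. Between L894 and L888, both Afr x Eur, 1363 of 9380 genes passed in edgeR (14.5%), and between L882 and L875, both Eur x Afr, 77 of 9307 passed (0.827%). These pairs share bees with the main comparison and lie in different blocks, so family and block cannot be told apart in them. Their counts stand beside the 4 genes between the reciprocal lineages of block B and the 7 of block A, with no test between the counts.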

How the data were processed

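PolyA RNA from 24 single brains was sequenced as paired ends over 2 lanes, per the labels. The authors deposited expected counts (estimated read counts per gene, 87.3% exactly whole at a tolerance of 0) for 15314 identifiers, of which 3198 had no count in the 12 bees of block B. HISAT2 and limma are named in the submitters' processing notes, with neither version nor role. Counting tool, genome build and annotation: not given in the sources used here. Both allele tables were not used, and 0 columns of bees were left unused in the expression table.

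Expected counts were rounded, filtered with filterByExpr by lineage and fitted in edgeR 4.0.16 (R 4.3.3) with TMM factors, glmQLFit and glmQLFTest, two-sided, with a Benjamini-Hochberg adjusted p of 0.05 over all genes tested. The lineage comparisons had status as a covariate. Status-specific contrasts and the block contrast came from models with 1 mean per group. The SE of a log2 difference is its size divided by the square root of F. The CPM printed are computed values, with TMM factors over all 24 bees and 9748 genes, and serve for display. DESeq2 1.42.0 and limma 3.58.1 were alternatives, beside other filters and size factors, thinning, a minimum of 1.5-fold, all 24 bees, each status alone and each bee left out. For the status contrasts and the block signs, the alternatives were added after the data were seen. So was the top-10 share as a covariate in every fit except that of L894 against L882 over all 12 bees.

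For L894 against L882, over all bees and by status, and for the difference between blocks, up to 2 identifiers in each direction are named. Genes of the other pairs of lineages are not described for their own sake. The named ones are the called gene with the largest difference among those whose lineages do not overlap and whose mean is at least 1 CPM, and the called gene with the smallest p, or the next largest difference where both are 1 gene. For the difference between blocks no condition on overlap was applied, and the lineages of a block can overlap in the genes named there. Other identifiers were chosen after their values were seen. The members and lists were chosen with earlier results of these data known, and the lists could not be applied because 0 of the identifiers were matched. The fits were tested on simulated data. No bees looked like 1 library deposited more than once, since counts of bees in a group differed by a chi-square of at least 57.5 per degree of freedom.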

Additional observations from a re-analysis of the deposited data

Results flagged for a closer look

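GB51446 had 1287 CPM in L882 Sterile 2, far from the other 5 bees of that lineage, of which the next had 313 CPM. It was the only such bee in the 24 groups of 6 examined, and chance flags about 1 in 20 groups. Without L882 Sterile 2 the log2 difference between L894 and L882 was -6.68 (edgeR adjusted p = 4.33e-05). In block A the gene also had a bee far above its lineage, L875 Sterile 1 at 1112 CPM, with the next L875 bee at 242 CPM.

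The Afr x Eur minus Eur x Afr difference was not the same in block B as in block A in 17 genes, by edgeR's test between the blocks. Each cross direction is a single lineage in a block, so direction and family cannot be told apart here. The genes named from this test were GB49689 with 4.99 log2 units (block B minus block A), GB55796 with 1.91, GB51446 with -7.67 and GB50921 with -4.80. The adjusted p of GB55796 and of GB50921 stayed under 0.05 in all 24 fits that left out 1 bee, that of GB51446 in 15 and that of GB49689 in 9.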

How the results depend on the processing

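With RLE factors, 10 counts in 6 bees, limma voom or no status term, the same 4 genes passed between L894 and L882. The count was 8 without a filter, 12 with all 24 bees, 184 in DESeq2, 187 in reproductive bees alone, 2 in sterile bees alone and 2 with the top-10 share as a covariate. Leaving out 1 bee gave 3 to 64. The causes were not tested. DESeq2 called 41 genes in block A, 15 for the difference between statuses, 283 between blocks, 1166 in reproductive bees, 14 in sterile bees and 3 in both blocks with the same sign. limma voom called 26 between blocks and 0 in sterile bees, and RLE factors gave 2 in sterile bees. With that share as a covariate, 9 passed between blocks and 8 in reproductive bees.

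Leaving out 1 bee gave 4 to 14 in block A, 0 to 1 between statuses, 6 to 324 between blocks, 0 to 941 in reproductive bees, 0 to 4 in sterile bees and 0 to 1 in both blocks. In block A, 4 came without L875 Sterile 2 and 14 without L888 Sterile 2. Between blocks, 324 came without L888 Sterile 2, 225 without L875 Reproductive 2, 204 without L888 Reproductive 1 and 26 without L882 Sterile 3. The count was 9 without L875 Reproductive 1 or 3, L882 Reproductive 1 or 2 or L882 Sterile 1, 8 without L888 Reproductive 3 or L894 Sterile 1, and 6 and 7 without L894 Reproductive 1 and 2. The difference in depth ranged from 2.36 to 4.203 M counts, in the top-10 share from 8.12 to 18.5 points and in genes detected from -180.7 to -108.6. Thinned to the smallest library, genes detected differed by -240 (exact permutation p = 0.04), and 6 genes passed between the lineages, among them the 4. No paired analysis was possible because the labels give no replicate numbers shared between groups. With 6 bees against 6 from 1 family each, low genes such as GB46678, with 5 to 14 counts per L882 bee, have the largest counting error.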

Other observations

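GB45796, one of the 10 most abundant genes and chosen after its values were seen, varied widely between bees of the same lineage. In reproductive bees it had 53.1, 20928 and 4796 CPM in L882 and 82.7, 135.3 and 134.8 CPM in L894. In sterile bees it had 23307, 16216 and 12834 CPM in L882 and 43380, 25733 and 69753 CPM in L894. The reproductive bees of L894 were thus low together with L882 Reproductive 1, and all sterile bees of block B were high. The log2 difference, L894 minus L882, was -6.20 in reproductive bees (SE 1.38, edgeR adjusted p = 0.0394) and 1.41 in sterile bees (0.9991). The difference between the statuses was -7.61 (SE 1.74, edgeR adjusted p = 0.358, DESeq2 adjusted p = 0.0164). Of the 12 fits with 1 bee left out, it passed in edgeR only without L882 Reproductive 1 (adjusted p = 0.00494), the low reproductive bee of L882. In block A the gene ranged from 332 to 32079 CPM in L888 and from 19.2 to 35265 CPM in L875.

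No gene was at 0 in all 6 bees of one lineage with at least 20 counts in every bee of the other. With the minimum lowered to 1 count, after the data were seen, GB40253 met the condition. It had 0 counts in every L882 bee and 108 in L894, from 4 to 34 per bee. Against a floor of 3 counts over the L882 group it was at least 34.7-fold higher in L894. It did not pass the count filter between L894 and L882, so this difference was not tested. In the test between blocks the gene did not pass in edgeR (adjusted p = 0.0749) and passed in DESeq2 (adjusted p = 0.0029). L875 held 37 counts and L888 held 26, of which 24 were in L888 Sterile 2. The gene was thus found in both cross directions of block A, in L888 mostly in a single bee.

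In sterile bees fitted alone, GB43991 passed beside GB51446, with a log2 difference of -2.74 (edgeR adjusted p = 0.0130). In the fit that shares its spread with reproductive bees it gave -2.75 (adjusted p = 0.131), and -0.75 in reproductive bees.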
